A study of Schizosaccharomyces pombe with 4 samples.

Results

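The hexose transporter family of fission yeast, *ght1* to *ght8*, was followed in total RNA of cells that lack the exonuclease Rrp6 (*rrp6*Δ) and of wild-type cells (WT). The members are the gene entries of the deposited table that carry these 8 names, out of 5129 protein-coding gene entries and 11620 entries of all transcript classes. The series holds 2 libraries of *rrp6*Δ and 2 of WT *Schizosaccharomyces pombe*, given as biological duplicates in the methods, and was made to find non-coding transcripts that the exosome removes. The labels give no allele beside the deletion of *rrp6*, and the mating type and the number of independent clones were not taken from the sources used here. The methods name YES or EMMG medium for the strains of the study, without saying which these cultures had.

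The Ght proteins are sugar transporters of the plasma membrane that carry hexoses into the cell, and yeast cells keep several of them for different sugar supplies. In *S. pombe* Ght5 is the main high-affinity glucose transporter and is needed for growth on little glucose. Its gene is restrained by the glucose repressor Scr1, and its protein is held at the cell surface through the TORC2 kinase pathway. Rrp6 is an exonuclease of the nucleus and a partner of the exosome, through which non-coding RNAs, and meiotic transcripts that are not wanted in dividing cells, are broken down.

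The deposited values are normalized read counts, 1 per transcript and library, and densities, which relate these counts to transcript length in nt. Protein-coding genes received 37893454 to 52313091 reads per library. The *rrp6* transcript had 7.38 and 8 normalized read counts in *rrp6*Δ libraries, against 2352 and 2842 in WT libraries. Differences were tested with limma over all 11227 transcripts with enough reads, and calls (written as rose or fell) needed both an adjusted p under 0.05 and more than a 2-fold change. All 8 *ght* genes passed the filter on low counts. The median log2 fold change was 0.66 over these transcripts and 0.26 over the 5073 protein-coding genes, so most transcripts lay above the level of no change.

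The members lie on all chromosomes. *ght3* is on chromosome I (82746 to 84786, plus strand). Chromosome II holds *ght7* (38514 to 40277, minus strand), *ght4* (155751 to 159570, plus strand) and *ght2* (3427180 to 3429424, plus strand). Chromosome III holds *ght6* (204706 to 206717, plus strand), *ght5* (212160 to 214376, plus strand), *ght8* (226336 to 230546, minus strand) and *ght1* (232288 to 235289, minus strand) in 1 neighbourhood. The coordinates are those of the deposited table, and they fit the ASM294v3 sequence from RefSeq, where ATG was found at the start of 5112 of 5118 coding sequences (99.9%). The span of *ght8* in the table (4211 nt) is longer than in RefSeq (2510 nt), and 2146 nt of it lie before the coding sequence.

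The coding sequences of the members are alike enough to bear on how short reads are placed. Their identity ranged from 63.7% for *ght3* and *ght6* to 92.2% for *ght5* and *ght8*. The starts of the coding sequences of *ght6*, *ght5* and *ght8*, with that of *ght2* beside them, show the likeness. The capitals mark the longest run that *ght6*, *ght5* and *ght8* share, 44 bases within the first 60, at chrIII:204733-204792 (plus strand), chrIII:212313-212372 (plus strand) and chrIII:228341-228400 (minus strand). The *ght2* sequence at chrII:3427572-3427631 (plus strand) does not hold this run.
ght6: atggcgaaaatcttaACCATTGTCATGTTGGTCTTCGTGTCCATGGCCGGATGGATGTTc
ght5: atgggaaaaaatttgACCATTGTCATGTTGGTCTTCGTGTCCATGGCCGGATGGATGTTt
ght8: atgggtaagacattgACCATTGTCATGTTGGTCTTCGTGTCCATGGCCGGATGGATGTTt
ght2: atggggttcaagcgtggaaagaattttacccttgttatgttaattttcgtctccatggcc

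The longest stretch of coding sequence that *ght5* and *ght8* have in common is 248 bases, from coding base 1007 to coding base 1254 of each gene. It is shown because a read from inside it has at least 2 possible origins, as parts of it also occur in *ght1*. It lies at chrIII:213319-213566 on the plus strand in *ght5* and at chrIII:227147-227394 on the minus strand in *ght8*, here printed once.
ght5 and ght8: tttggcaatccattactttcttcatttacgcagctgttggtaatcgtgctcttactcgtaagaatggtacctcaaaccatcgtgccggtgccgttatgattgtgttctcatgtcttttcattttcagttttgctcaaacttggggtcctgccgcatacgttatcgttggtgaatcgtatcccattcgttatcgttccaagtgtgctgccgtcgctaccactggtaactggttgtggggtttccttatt

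Stretches of 50 nt, the length of 1 read of a pair, were counted along each member. Of the stretches of *ght5*, 27.5% also occur exactly elsewhere in the genome, as do 14.6% of those of *ght8*, 10.6% of *ght3*, 5.62% of *ght4*, 5.22% of *ght1* and 1.99% of *ght6*, while none of *ght2* or *ght7* does. With up to 3 mismatches, the tolerance of the mapping, 42.4% of the stretches of *ght5* and 23.2% of those of *ght8* match another member, against 7.95% of *ght6*, 1.14% of *ght2* and 0.641% of *ght7*. The study used uniquely mapped reads for a plot of these 2 strains, and whether the deposited counts rest on the same reads is not stated there. If they do, reads from shared stretches are missing from each gene, and otherwise they may be split between genes or counted for both. So the levels of *ght5* and *ght8*, and of *ght3* and *ght4*, whose coding sequences share a run of 240 bases, are uncertain. So is that of *ght1*, which shares a run of 182 bases with each of the more abundant *ght5* and *ght8*. Of the stretches of *ght1*, 10.3% match another member with up to 3 mismatches. The level of *ght6* is uncertain too, as it shares a run of 72 bases with each of *ght5* and *ght8* and had far fewer reads than either. The value of *ght2* is the least affected among the 3 abundant members.

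Per length, 3 members made up nearly all of the family in both strains. In *rrp6*Δ cells the density was 9.16 ± 0.559 for *ght8*, 5.73 ± 0.360 for *ght2* and 3.14 ± 0.307 for *ght5*. In WT cells it was 8.60 ± 0.672 for *ght8*, 3.37 ± 0.146 for *ght2* and 3.29 ± 0.141 for *ght5* normalized read counts per nt (SD, n = 2 libraries per strain). Of the 5129 protein-coding genes, 92.3% lay below *ght8* in *rrp6*Δ and 91.6% in WT. The corresponding shares were 88.4% in *rrp6*Δ and 83.0% in WT for *ght2*, and 79.8% in *rrp6*Δ and 82.6% in WT for *ght5*.

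The other 5 members were low. *ght4* had a density of 0.200 ± 0.0290 in *rrp6*Δ and 0.190 ± 0.0106 in WT, *ght1* 0.134 ± 0.0104 in *rrp6*Δ and 0.144 ± 0.00354 in WT, and *ght3* 0.0935 ± 0.0105 in *rrp6*Δ and 0.0759 ± 0.00230 in WT. *ght6* had 0.0437 ± 0.00926 in *rrp6*Δ and 0.00790 ± 0.000610 in WT, and *ght7* 0.00696 ± 0.00458 in *rrp6*Δ and 0.00456 ± 0.00290 in WT (SD, n = 2 each). The gap between *ght5* and *ght4*, the next in order, was 15.7-fold in *rrp6*Δ and 17.3-fold in WT. For *ght6*, 2.91% of the protein-coding genes lay lower in *rrp6*Δ and 1.85% in WT, so it was among the lowest protein-coding genes in both strains.

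The order *ght8*, *ght2*, *ght5*, *ght4*, *ght1*, *ght3*, *ght6*, *ght7* from high to low held in both strains. All neighbours in this order were apart in their 2 libraries, except *ght2* and *ght5* in WT, whose densities overlapped. On the coding sequences alone the order was the same, and *ght2* (4.31 ± 0.220) and *ght5* (3.80 ± 0.227) did not overlap in WT (SD, n = 2).

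**Figure D1:**
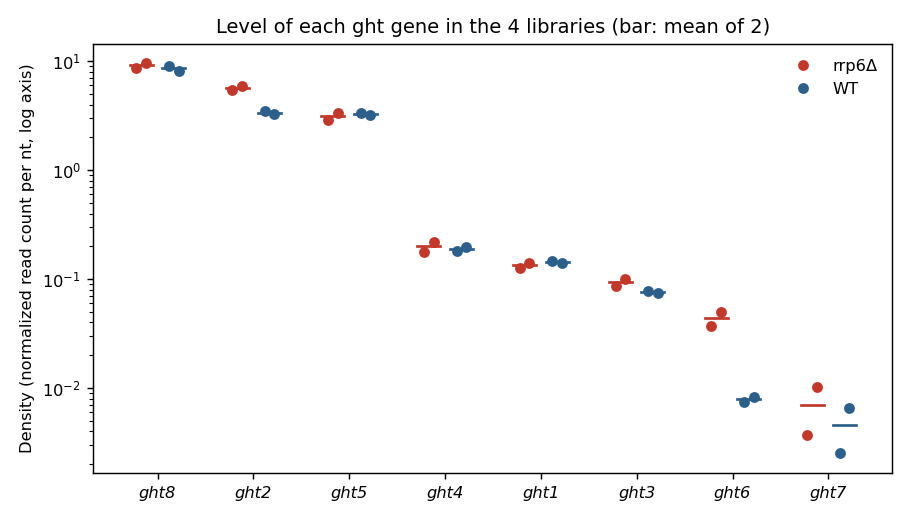
Density of each *ght* gene, in normalized read counts per nt on a log axis, in the 2 *rrp6*Δ libraries (red, left of each pair) and the 2 WT libraries (blue, right), with the mean of each strain as a bar. *ght8*, *ght2* and *ght5* lie above 2 and the other 5 members below 0.3, *ght2* is higher in both *rrp6*Δ libraries, and *ght6* is the low member whose strains are farthest apart.

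*ght6* was the member that rose in *rrp6*Δ cells. Ght6 carries hexoses with a slight preference for fructose over glucose, and its gene is also listed as *meu12*, a name given to transcripts that go up in meiosis. *ght6* (SPCC1235.13) had 74.7 and 101 normalized read counts in *rrp6*Δ libraries, against 15.0 and 16.8 in WT libraries, from 91 and 101 reads in *rrp6*Δ and 17 and 23 reads in WT. Both *rrp6*Δ libraries were far above both WT libraries, and the 2 WT libraries were close to each other. The means were 87.8 ± 18.6 in *rrp6*Δ and 15.9 ± 1.23 in WT (SD, n = 2), a 5.53-fold difference. On the log2 scale limma gave 2.40 (standard error 0.28, 95% interval 1.80 to 2.99, adjusted p = 1.1e-06). In RNA of whole cultures, more cells with the transcript and more transcript per cell cannot be told apart.

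Among the protein-coding genes, 6.39% were called higher in *rrp6*Δ and 0.591% lower (42.6% and 0.57% of all transcripts tested). Of the 8 *ght* genes, 1 was called higher and 0 were called lower. By the adjusted p alone 2 were higher and 0 lower, against 46.7% and 7.08% of protein-coding genes and 67.6% and 4.18% of all transcripts (an unadjusted p under 0.05 in limma also gave 2 and 0). The median over the 8 members was 0.19, close to that of protein-coding genes. With quantile normalization *ght6* had a log2 fold change of 0.52 (adjusted p = 0.0732 from limma), and its call was lost.

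The reads of *ght6* came from its coding sequence in the main. The coding sequence had 68.1 and 88 normalized read counts in *rrp6*Δ libraries, against 15.0 and 16.0 in WT libraries. The parts of the gene outside the coding sequence had 6.56 and 13 in *rrp6*Δ, against 0 and 0.729 in WT, where 0.729 is 1 read. So the difference was seen over the coding sequence itself, with a log2 fold change of 2.27 in the test on that entry. Of the stretches of 50 nt in *ght6*, 39 of 1963 occur exactly elsewhere in the genome, and 156 match another member with up to 3 mismatches. Whether reads of the more abundant members were counted for *ght6* was not tested.

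*ght2* was the abundant member that differed. Its product takes up glucose and fructose together with protons. *ght2* (SPBC4B4.08) had 12291 and 13435 normalized read counts in *rrp6*Δ libraries, against 7788 and 7324 in WT libraries. Both *rrp6*Δ values lay above both WT values by more than the spread within either strain. The means were 12863 ± 809 in *rrp6*Δ and 7556 ± 328 in WT (SD, n = 2), a ratio of 1.70. The log2 fold change by limma was 0.77 (95% interval 0.56 to 0.97, standard error 0.098, adjusted p = 2.76e-06), which is under 2-fold and so no call. It was 0.77 within the coding sequence and 0.75 outside it, as the log2 ratio of the means. With the size factors of DESeq2 the log2 fold change of *ght2* was 0.10 (adjusted p = 0.376).

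*ght8*, the most abundant member, did not pass the test with the deposited factors. *ght8* (SPCC548.06c) had 36897 and 40228 normalized read counts in *rrp6*Δ libraries, against 38233 and 34230.0 in WT libraries. The libraries of the strains interleaved. The log2 fold change was 0.09 (95% interval −0.10 to 0.28, adjusted p = 0.38 by limma). With TMM over the whole table (−0.45) and DESeq2 size factors (−0.58) it passed the adjusted p as lower, under 2-fold. The density over its coding sequence was 17.6 ± 0.923 in *rrp6*Δ and 16.2 ± 1.38 in WT (SD, n = 2), above that of the whole entry in each strain, and 25.2% of the reads in *rrp6*Δ and 26.4% in WT fell outside the coding sequence.

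*ght5*, the gene of the high-affinity glucose transporter, did not pass the test with the deposited factors. *ght5* (SPCC1235.14) had 6471 and 7435 normalized read counts in *rrp6*Δ libraries, against 7504 and 7063 in WT libraries. One *rrp6*Δ library was below both WT libraries and the other between them. The log2 fold change was −0.07 (95% interval −0.29 to 0.15, adjusted p = 0.558 from limma), so a change of 2-fold in either direction lies outside the interval on this scale. It passed the adjusted p as lower, under 2-fold, with TMM over the whole table (−0.61), TMM over protein-coding genes (−0.32), quantile normalization (−0.25) and DESeq2 under its own size factors (−0.73, adjusted p = 6.68e-11).

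**Figure D2:**
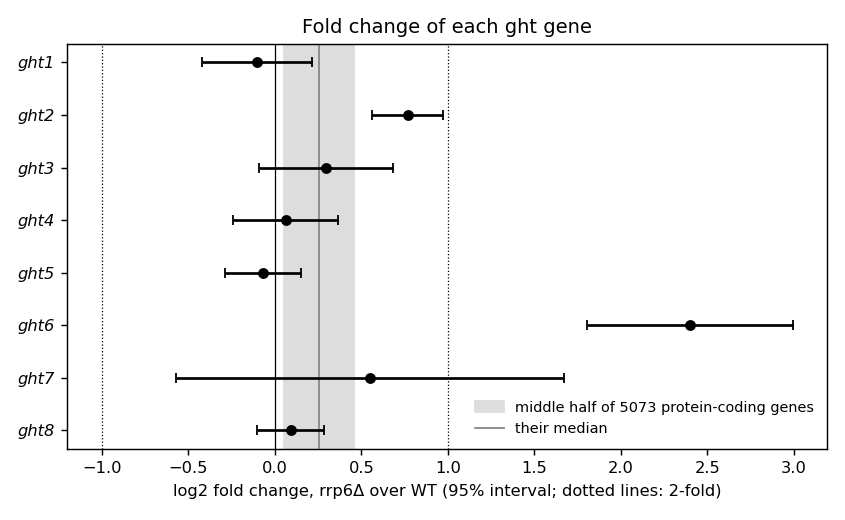
Log2 fold change of each *ght* gene, *rrp6*Δ over WT, from limma with its 95% interval (points and bars), with the range between the quartiles of 5073 protein-coding genes in grey (0.05 to 0.46) and their median as a grey line. The interval of *ght6* (1.80 to 2.99) lies wholly above the dotted 2-fold line, that of *ght2* (0.56 to 0.97) lies between 0 and that line, and the other 6 intervals include 0.

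The members of low level other than *ght6* did not pass the test with the deposited factors. *ght4* (SPBC1683.08) had 684 and 841 normalized read counts in *rrp6*Δ libraries, against 698 and 756 in WT libraries. The WT values lay inside the range of the *rrp6*Δ values, and the log2 fold change was 0.06 (95% interval −0.24 to 0.37, adjusted p = 0.707 from limma). *ght4* passed the adjusted p as lower, under 2-fold, with TMM over the whole table (−0.48), quantile normalization (−0.45) and DESeq2 size factors (−0.59). *ght1* (SPCC548.07c), whose product carries glucose, had 379.8 and 424 in *rrp6*Δ libraries, against 438 and 423 in WT libraries. Its values overlapped between strains, with a log2 fold change of −0.10 (95% interval −0.42 to 0.22, adjusted p = 0.554 from limma). It too passed the adjusted p as lower, under 2-fold, with both TMM scalings (−0.64 over the whole table and −0.35 over protein-coding genes), quantile normalization (−0.90) and DESeq2 under its own size factors (−0.76, adjusted p = 1.22e-06). Outside its coding sequence *ght1* had 103 and 105 in *rrp6*Δ, against 131 and 147 in WT, while the coding sequence overlapped between strains.

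*ght3* (SPAC1F8.01), whose product takes up gluconate, had 176 and 206 normalized read counts in *rrp6*Δ libraries, against 158 and 152 in WT libraries. Both *rrp6*Δ libraries lay above both WT libraries, yet the log2 fold change of 0.30 (95% interval −0.09 to 0.68, adjusted p = 0.158 by limma) did not pass the test. Such a separation, with both *rrp6*Δ libraries above both WT libraries, was seen for 3 of the 8 members (*ght2*, *ght3* and *ght6*) and for 65.3% of protein-coding genes, and the reverse for 0 members and 12% of protein-coding genes (79% and 7.33% of all transcripts).

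*ght7* (SPBC1348.14c), the lowest member, had 6.56 and 18 normalized read counts in *rrp6*Δ libraries, against 4.42 and 11.7 in WT libraries, from 8 and 18 reads in *rrp6*Δ and 5 and 16 reads in WT. The 2 libraries within each strain were farther apart than the strains. The log2 fold change was 0.55 (95% interval −0.57 to 1.67, adjusted p = 0.361 by limma), so a difference of 2-fold in *ght7* was not detectable at this depth. Without WT library 2 it was called higher (1.18, adjusted p = 0.0386 from limma), and with quantile normalization it was called lower (−2.09, adjusted p = 0.0095 from limma).

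The make-up of the family does not depend on the factor of a library. Of the summed density of the 8 members, *ght2* took 31.1% and 30.8% in *rrp6*Δ libraries, against 21.2% and 21.7% in WT libraries. *ght8* took 49.8% and 49.2% in *rrp6*Δ, against 55.5% and 54.2% in WT, and *ght5* took 16.6% and 17.3% in *rrp6*Δ, against 20.7% and 21.2% in WT. For these 3 members the strains did not overlap, and the differences of 9.50, −5.34 and −4.03 percentage points were larger than the spread within a strain. The shares add up to 100%, so these are not separate differences, and the densities of *ght8* and *ght5* themselves overlapped between strains. The share of *ght6* was 0.211% and 0.259% in *rrp6*Δ, against 0.0457% and 0.0555% in WT. The 5 low members together took 2.46% and 2.69% in *rrp6*Δ, against 2.55% and 2.85% in WT. These shares rest on the deposited entries, and that of *ght8* is longer than in RefSeq. On coding sequences alone *ght8* took 60.6% and 60.1% in *rrp6*Δ, against 65.8% and 64.7% in WT. There *ght2* took 25.2% in each *rrp6*Δ library, against 17.1% and 17.6% in WT.

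The summed density was 17.6 and 19.4 in *rrp6*Δ libraries, against 16.3 and 15.0 in WT libraries. The ratio of the means was 1.18 on the deposited scale, on which the median protein-coding gene also lay above no change, at a log2 fold change of 0.26. With 2 libraries per strain an exact permutation test cannot reach a p of 0.05, so the shares and the sum are given without one.

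**Figure D3:**
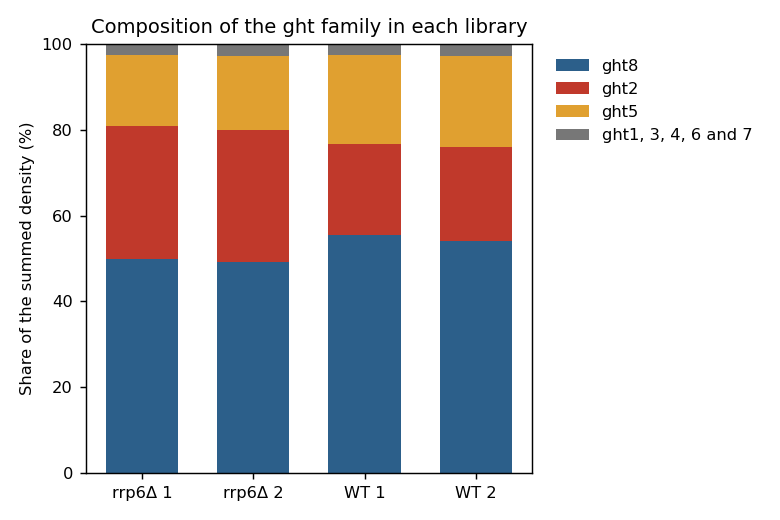
Share of each member in the summed density of *ght1* to *ght8* (per cent, bars from 0 to 100), in each *rrp6*Δ library (left) and each WT library (right). *ght2* takes 31.1% and 30.8% in *rrp6*Δ against 21.2% and 21.7% in WT, the shares of *ght8* and *ght5* are smaller in *rrp6*Δ, as they add up with it to a fixed whole, and the grey piece for the 5 low members stays under 3%.

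Transcripts on the opposite strand, over the gene or within 1000 bases before its start, were in the table for each member but *ght2*. Of the annotated non-coding RNA genes 49.5% were called higher in *rrp6*Δ, as were 33.8% of the non-coding transcription units newly listed in the table, 60.7% of XUTs (transcripts that the exonuclease Xrn1 removes) and 99.9% of CUTs (cryptic unstable transcripts). The CUTs were picked by the study for their rise in these same libraries, so their direction is no independent evidence. Every other opposite-strand entry named below as rising overlaps a CUT on its strand, so the same holds for it in part. All calls on these transcripts rest on the deposited factors, and other scalings shifted the median over all transcripts by −0.067 to −0.72 (log2). The rises named below were 1.06 to 1.43, so shifts of this size could take them under 2-fold. Their values under other scalings are not given here.

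Over the whole length of *ght6* runs *ght6-antisense-1* (chromosome III, 204633 to 206912, minus strand). It had 421.7 and 451 normalized read counts in *rrp6*Δ libraries, against 329 and 385 in WT libraries. The strains were apart by little, and the log2 fold change of 0.29 (adjusted p = 0.101 by limma) did not pass the test. The sense transcript of *ght6* thus had 17.7% and 22.4% of the count of its antisense partner in *rrp6*Δ libraries, against 4.57% and 4.35% in WT libraries. The antisense RNA was the more abundant of the pair in all 4 libraries. The XUT entry at this place, XUT0023, held the same reads. The libraries keep the strand, and the share of antisense reads assigned to the sense strand was not measured here.

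At *ght5* the opposite strand rose while *ght5* did not pass the test. The unit novelncTU_437 covers 83.3% of *ght5* and had 176 and 193 normalized read counts in *rrp6*Δ libraries, against 71.6 and 68.5 in WT libraries. By limma it rose by 1.39 on the log2 scale (adjusted p = 1.09e-05). CUT19, which shares part of these reads, had 120.6 and 119 in *rrp6*Δ libraries, against 42.4 and 45.9 in WT libraries (log2 fold change 1.43). The counts of novelncTU_437 came to 2.66% of those of *ght5* in *rrp6*Δ and 0.962% in WT. So the antisense RNA of *ght5* was far below its partner in both strains, where that of *ght6* was above.

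At *ght4* the entries on the opposite strand did not all pass the test. Those that rose were a CUT, picked for its rise, and an XUT inside it. So the contrast along the gene is no independent evidence. CUT226, over the later part of the gene, had 89.4 and 110 normalized read counts in *rrp6*Δ libraries, against 37.1 and 45.2 in WT libraries, and rose by 1.26 on the log2 scale (adjusted p = 0.000195 from limma). XUT0172, which lies within CUT226, rose by 1.06. SPNCRNA.1319 and XUT0171, over the start of the coding sequence, had a log2 fold change of 0.01 each and did not pass the test, nor did SPNCRNA.1318 across the start of the gene (−0.17). SPNCRNA.298, a non-coding RNA on the same strand as *ght4* inside the part before its coding sequence, had −0.17 and did not pass either.

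The other members had fewer reads on the opposite strand. Before the start of *ght3*, SPNCRNA.603 had 45.9 and 49 normalized read counts in *rrp6*Δ libraries, against 15.0 and 27.0 in WT libraries, and rose by 1.21 on the log2 scale. XUT0452 and CUT687, which lie within it and hold the same reads as each other, rose by 1.18. SPNCRNA.1121, over the start of *ght1*, had a log2 fold change of 0.76 (adjusted p = 0.06 from limma) and did not pass the test. XUT0806 and XUT0807 at *ght1* and XUT0960 and XUT0961 at *ght7* had too few reads for the filter, with at most 8.20 normalized read counts in any library. SPNCRNA.1120, before the start of *ght8*, had −0.18 and did not pass.

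**Figure D4:**
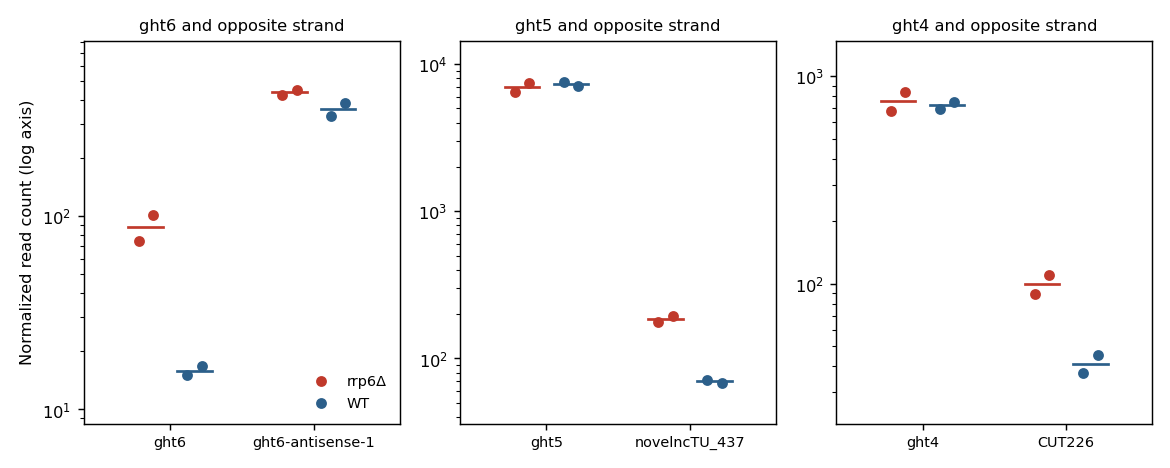
Normalized read counts (log axis) of *ght6*, *ght5* and *ght4* and of a transcript on the opposite strand of each, in the 2 *rrp6*Δ libraries (red, left of each pair) and the 2 WT libraries (blue, right), with the mean as a bar. The antisense RNA lies above *ght6* in all 4 libraries (at 329 or more, where *ght6* is at 101 or less), and novelncTU_437 and CUT226 are higher in *rrp6*Δ while *ght5* and *ght4* overlap between strains.

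Protein-coding genes lie before *ght4* and *ght5*. *mal1*, which encodes an alpha-glucosidase that splits maltose and ends shortly before *ght4* on the same strand, had 943 and 988 normalized read counts in *rrp6*Δ libraries, against 498 and 674 in WT libraries (log2 fold change 0.73, adjusted p = 0.000411 from limma), which is under 2-fold. SPCC1235.17, of unknown function, on the opposite strand before *ght5*, had 310.1 and 368 in *rrp6*Δ libraries, against 181 and 187 in WT libraries (0.88, adjusted p = 0.000224 from limma). SPCC1235.18, on the same strand as *ght5*, had a log2 fold change of −0.07 and did not pass the test. So the neighbours of *ght5* did not all differ alike, and *ght5* itself lay with SPCC1235.18.

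The 250 bases before the start were read for the members that differed, *ght6* (chrIII:204456-204705, plus strand) and *ght2* (chrII:3426910-3427159, plus strand, up to the start in RefSeq, which lies before that of the table). They are shown with matches to TATAAA, the TATA box, and to TGACGT, the cAMP response element that ATF/CREB factors such as Atf1 bind, on either strand in capitals.
ght6: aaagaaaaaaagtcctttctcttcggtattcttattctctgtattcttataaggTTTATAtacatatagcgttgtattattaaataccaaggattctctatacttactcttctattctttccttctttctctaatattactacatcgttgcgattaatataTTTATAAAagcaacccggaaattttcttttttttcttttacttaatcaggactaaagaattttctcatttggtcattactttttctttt
ght2: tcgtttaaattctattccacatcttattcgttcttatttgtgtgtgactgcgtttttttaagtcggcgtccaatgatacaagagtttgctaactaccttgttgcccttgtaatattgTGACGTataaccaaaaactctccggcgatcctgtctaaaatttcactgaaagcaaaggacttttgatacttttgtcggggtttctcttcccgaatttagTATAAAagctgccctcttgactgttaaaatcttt

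In the sequence of *ght6* the TATA letters were found 3 times, of which 2 overlap each other on opposite strands, and the TGACGT letters not at all. In that of *ght2* each was found once, the TGACGT letters starting 133 bases and the TATA letters 34 bases before its end. TATAAA is in 45.5% of 5117 promoters of the same length on either strand, TGACGT in 4.55% and CCCCTC, the stress element that Rst2 binds, in 1.58%. Of the 8 members, *ght2*, *ght4* and *ght6* held TATAAA, *ght2* held TGACGT and none held CCCCTC. A match here describes the letters only.

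The RNA-binding protein Mmi1, which marks meiotic transcripts for removal, recognises a core of the letters UNAAAC, which is TNAAAC in DNA. On the sense strand *ght6* held 2 of these, 1 of them in the coding sequence, and 85.6% of 805 genes of like length held as many. The counts were 10 for *ght4* and *ght8*, 5 for *ght1* and *ght7*, 4 for *ght2* and *ght5* and 2 for *ght3*, with a median of 3 over protein-coding genes of all lengths. *ght4* and *ght8* are long entries, and 14.9% and 21.3% of genes of like length held at least as many. The coding match of *ght6* is at a place that other members share. It is shown in 30 bases at chrIII:205866-205895 (plus strand), beside the same place in *ght8* at chrIII:227244-227273 (minus strand), which reads the same in *ght5*, and in *ght2* at chrII:3428711-3428740 (plus strand). The core is in capitals.
ght6: tttcagttttgcTCAAACttgggctcctgc
ght8: tttcagttttgcTCAAACttggggtcctgc
ght2: ttttggatttgcTCAAACttgggctcctgc

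All 3 windows hold the same core, TCAAAC. The letters are a description, and binding of Mmi1 was not measured in these libraries.

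The 3 protein-coding genes whose values over the 4 libraries, on the log2 scale and centred, lay closest to those of *ght6* among 5072 were SPAC5H10.04, *rep1* (SPBC2D10.06) and SPBC1711.15c, at Euclidean distances of 0.189, 0.205 and 0.218. SPAC5H10.04 encodes an NADPH dehydrogenase. *rep1*, which encodes an activator of the MBF transcription factor, had 1014 and 1151 normalized read counts in *rrp6*Δ libraries, against 209 and 212 in WT libraries (log2 fold change 2.35). The likeness rests on 4 values per gene and is a description.

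Genes that act on sugar uptake were set beside the family by 6 lists of 50 matched genes. In limma 0 of the 50 were called higher or lower, against 6.39% called higher and 0.591% called lower of protein-coding genes. By the edgeR and DESeq2 tests with the deposited factors likewise 0 of the 50 were called, while DESeq2 with its own size factors called 4 lower. By the adjusted p alone 21 were higher and 4 lower, against 46.7% and 7.08% of protein-coding genes. By an unadjusted p under 0.05, 22 were higher and 4 lower, and the matching share of protein-coding genes is not given here. Their median log2 fold change was 0.22, near the 0.26 of protein-coding genes.

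In the glucose-sensing cAMP pathway 7 of 12 genes were higher by the adjusted p alone and 0 lower. For this and each list below, the shares to compare are 46.7% higher and 7.08% lower of protein-coding genes. *git5*, which encodes the G protein beta subunit, had a log2 fold change of 0.96 and *pka1*, the catalytic subunit of protein kinase A, 0.57. Without WT library 1 *git5* was called higher (1.01). Of 8 genes of AMP-activated kinase and glucose repressors 4 were higher and 1 lower, with *cbs2*, a kinase subunit, at −0.37 and *scr1*, the repressor of *ght5*, at 0.34.

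Of 11 genes of TORC2 and arrestins 3 were higher and 0 lower, with *aly3*, an arrestin that brings Ght5 into the cell, at 0.50 and *gad8*, the kinase that keeps it at the surface, at 0.47. Among 10 genes that glucose represses 5 were higher and 1 lower, with *mal1* at 0.73 and *fbp1*, the fructose-bisphosphatase of gluconeogenesis, at 0.59. Among 5 genes listed as other transporters 2 were higher and 0 lower, SPCC1235.17 at 0.88 and *sut1*, the sucrose and maltose transporter, at 0.43, and RefSeq gives SPCC1235.17 and SPCC1235.18, both on this list, as uncharacterized.

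The enzymes that act on the sugar once it is inside went the other way in part. Of 5 measured genes of hexose phosphorylation and galactose use 1 was higher and 2 were lower by the adjusted p alone. Over all protein-coding genes the shares were 46.7% and 7.08%. *hxk2*, the gene of hexokinase 2, had 52117 and 53554 normalized read counts in *rrp6*Δ libraries, against 77708 and 75763 in WT libraries. The strains did not overlap, with a log2 fold change of −0.54 (adjusted p = 2.03e-05 by limma). *hxk1* had −0.34 and *gal10*, which acts on galactose, 0.51. So with the deposited factors *ght2* and *hxk2*, both abundant and neither past 2-fold, differed in opposite directions. With TMM over the whole table and with DESeq2 size factors *hxk2* was called lower (−1.08 and −1.20). Under these scalings *ght2* was at 0.23 and 0.10, and with DESeq2 it did not pass the adjusted p.

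How libraries are scaled moved the values of the members. Against the deposited factors, the median over all 11227 transcripts shifted on the log2 scale by −0.54 with TMM factors over the whole table, −0.25 with TMM factors over protein-coding genes, −0.067 with library totals, −0.72 with quantile normalization and −0.66 with the size factors of DESeq2. The part of called protein-coding genes that were higher was 91.5% with the deposited factors, and 52.3%, 80.0%, 90.1%, 38.4% and 36.0% with these in turn. *ght6* stayed the highest of the 8 members under the factor scalings, with log2 fold changes of 1.87, 2.16, 2.33 and 1.80 with TMM from all transcripts, TMM from protein-coding genes, library totals and DESeq2, and it was called under each of these. With quantile normalization, which does not move all transcripts alike, *ght2* (0.63) was above *ght6* (0.52), *ght3* was at −0.99 and *ght7* at −2.09, and *ght8* was at 0.15, above its value with the deposited factors. *ght2* kept its sign under all 5 scalings, while *ght3*, *ght4*, *ght7* and *ght8* each changed sign under at least 1.

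**Figure D5:**
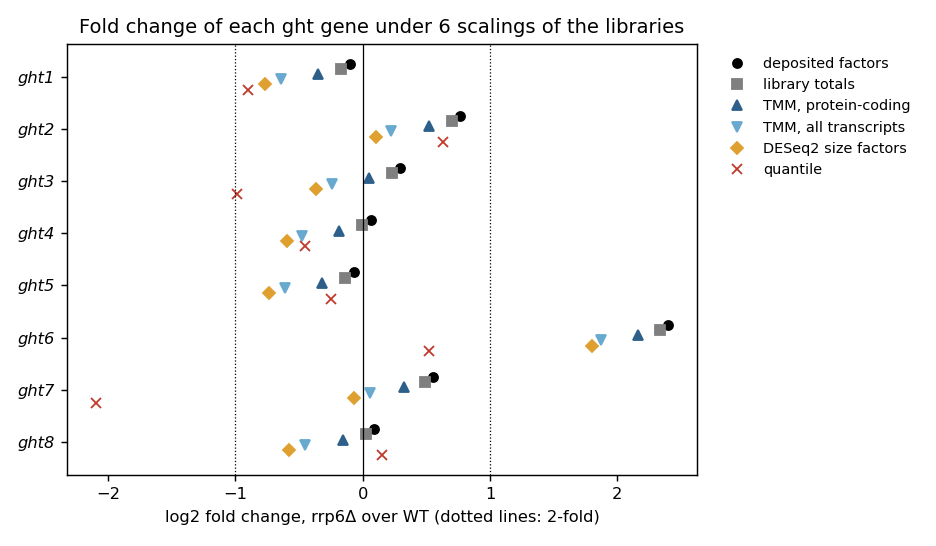
Log2 fold change of each *ght* gene, *rrp6*Δ over WT, with the deposited factors (black circles) and under 5 other scalings of the libraries (other symbols), with dotted lines at 2-fold. *ght6* lies beyond the 2-fold line under every scaling but quantile normalization (0.52), where *ght7* lies beyond it on the other side (−2.09), and *ght2* lies above 0 under all 6 scalings.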

How the data were processed

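The authors extracted total RNA with hot phenol, added ERCC spike-in RNA, removed rRNA and sequenced stranded libraries in pairs of 50 nt. They mapped the reads with TopHat 2.0.6, with up to 3 mismatches, and normalized densities on the ERCC signals. The paragraph of the methods on this experiment names neither genome release nor counter. The general paragraph names ASM294v2.28 and HTSeq, and a plot of these strains used uniquely mapped reads, but whether either applies to the deposited counts is not stated. The values that the authors deposited are signal values, namely a normalized read count per transcript and library and a density. Each normalized read count is a whole number of reads times a factor of its library (0.820 and 1 for *rrp6*Δ, 0.884 and 0.729 for WT) for 100% of the values, with a tolerance of 1e-06. Of 21852 entries, 10204 pieces of coding sequence were kept apart, 28 repeated pseudogene entries were dropped, 11620 entries remained, and 4 columns that sum libraries were not used.

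The main test was limma 3.58.1 with a trend (R 4.3.3) on the log2 of each normalized read count plus a pseudocount of 0.729 (the least value above 0), which understates the change of low transcripts. The filter was filterByExpr of edgeR 4.0.16 with a minimum count of 10 on the recovered reads, and adjustment was by Benjamini-Hochberg over 11227 transcripts. The quasi-likelihood test of edgeR and DESeq2 1.42.0 on the recovered reads, other scalings, filters, pseudocounts and thresholds, a replicate block, the coding sequences alone and leaving out each library were alternatives. The statistics were checked on simulated counts. All 8 members, every transcript over them or up to 1000 bases before them, 2 genes per list and the 3 closest patterns are named. Members and lists were chosen with earlier results of these data known. Of 51 listed genes 50 were matched, 5 of them through RefSeq identifiers. The libraries of a strain differed beyond counting noise (chi-square over degrees of freedom of 28.1 for *rrp6*Δ and 115 for WT), so each counts as 1 sample. Sequences were read from RefSeq ASM294v3 with Biopython 1.88.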

Additional observations from a re-analysis of the deposited data

How the results depend on the processing

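The limits are the 2 libraries per strain, the 5 to 23 reads per WT library on *ght6* and *ght7*, and the scaling. A further limit is the reads that *ght1*, *ght5*, *ght6* and *ght8*, or *ght3* and *ght4*, may share. The count of 1 called member was the same under 18 alternatives, but with quantile normalization the member was *ght7* (lower) and not *ght6*. It was 2 by the adjusted p alone and ranged from 1 to 2 when a library was left out, 2 without WT library 2, where *ght7* was added (the lone library is then assumed to vary like the others). *ght6* kept its direction under all 18 alternatives (0.52 to 2.62) and lost its call with quantile normalization. *ght2* kept its direction under all 18 (0.10 to 0.83).

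The signs of members without a call turned as follows. For *ght1* the coding sequence alone gave 0.027. For *ght3*, TMM over all transcripts gave −0.24, quantile normalization −0.99 (adjusted p = 0.000125 in limma, under 2-fold) and DESeq2 with its own size factors −0.36. For *ght4*, TMM over all transcripts gave −0.48, TMM over protein-coding genes −0.18, library totals −0.0047, quantile normalization −0.45 and DESeq2 −0.59, and leaving out a library −0.086 to 0.21. *ght5* ranged from −0.17 to 0.030 when a library was left out. *ght7* gave −2.09 with quantile normalization and −0.067 with DESeq2, and −0.13 to 1.23 when a library was left out. *ght8* gave −0.45 and −0.16 with both TMM scalings and −0.58 with DESeq2. TMM, library totals and DESeq2 change the factor of each library, so they move all members by about the same amount, while quantile normalization does not. *ght1* and *ght5* passed the adjusted p as lower, under 2-fold, with both TMM scalings, quantile normalization and DESeq2 (−0.35 to −0.90 and −0.25 to −0.73). So did *ght8* with TMM over all transcripts (−0.45) and DESeq2 (−0.58), and *ght4* with these (−0.48 and −0.59) and with quantile normalization (−0.45). For the changes with quantile normalization and with single libraries left out the cause was not tested.

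Of the glucose lists 1 gene was called with TMM over all transcripts (*hxk2*, −1.08), 2 with quantile normalization (*dak2*, −1.06, and SPCC1235.18, −1.02) and 4 with DESeq2 under its own size factors (*dak2*, *hxk1*, *hxk2* and *cbs2*, log2 fold changes of −1.12, −1.005, −1.20 and −1.03), 25 by the adjusted p alone, and 0 to 1 when a library was left out (*git5* without WT library 1). The share of *ght2* was higher by 7.07 percentage points on counts not divided by length and by 7.90 on coding sequences, that of *ght5* changed by −2.30 and −3.003, and that of *ght7* by −0.0085 to 0.023 when a library was left out.

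With the replicate number as a block, 1 member was again called, *ght6* (adjusted p = 6.39e-15 in limma), and the block changed no call of a member or list. The estimate for *ght6* stayed at 2.40, with a standard error of 0.30 against 0.28 without the block. So the smaller p is no stronger evidence, as it rests mostly on the variance that limma borrows across transcripts. Deviations of libraries with the same number correlated at 0.011 over 11227 transcripts, over only 2 pairs, and the labels do not tie the numbers to shared cultures.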
